A study of Rattus norvegicus with 10 samples.

Results

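The miR-30 family was described in small RNA sequencing of the rat hippocampus, as the 10 rows of the deposited table that carry the mature names miR-30a-5p to miR-30e-5p, miR-30a-3p, miR-30b-3p, miR-30d-3p, miR-30e-3p and miR-30c-2-3p. They are 10 of the 765 miRNAs listed, and all 10 were detected in every library. The groups were 5 libraries of the 2-VO operation, which closes the common carotid artery on both sides and serves as a model of chronic cerebral hypoperfusion, and 5 libraries of sham-operated rats. All rats were Wistar and 10 weeks old, and no source used here gives the delay after surgery. Whether each library is a rat of its own is not stated, so the tests speak only of the scatter among libraries, part or all of which may be technical.

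A miRNA is cut as a duplex from a hairpin precursor, and either its 5p or its 3p strand can be loaded into an Argonaute protein. The loaded strand finds its target mRNAs mainly through its seed, the bases 2 to 8. The 5p strands of the miR-30 family share 1 seed and so are taken to share many targets, while the 3p strands carry other seeds. The family is known from kidney podocytes and heart as well as brain. In human cells miR-30a-5p represses the autophagy gene Beclin 1, and in the mouse prefrontal cortex it represses Bdnf, the brain-derived neurotrophic factor.

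RefSeq held the mature sequence of 5 of the 10 members, of miR-30c-1-3p (the 3p strand of the other miR-30c hairpin, which is not among the 10) and of miR-384-5p. They are shown because the seed defines which strands belong together, and because members that differ by few bases compete for the same reads. The seed is in capitals, each sequence runs 5′ to 3′, and the build is GRCr8.
miR-30a-5p: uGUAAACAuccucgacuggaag
miR-30e-5p: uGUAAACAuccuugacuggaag
miR-30c-5p: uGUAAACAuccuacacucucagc
miR-384-5p: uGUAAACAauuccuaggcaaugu
miR-30a-3p: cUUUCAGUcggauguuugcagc
miR-30c-2-3p: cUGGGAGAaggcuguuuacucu
miR-30c-1-3p: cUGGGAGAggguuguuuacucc

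The first 12 bases of miR-30a-5p, miR-30e-5p and miR-30c-5p were identical. Counted from 1 at the 5′ end, miR-30a-5p and miR-30e-5p differed by the single substitution C13U, and miR-30a-5p and miR-30c-5p differed at 5 of the 22 bases compared (C13A, G14C, G18C, G19U and A20C). The unbroken match of miR-384-5p with them from the 5′ end ended at base 8, and 12 of 22 bases were identical to miR-30a-5p. miR-384-5p was the single listed miRNA outside the family with this seed among the 690 of 765 whose sequence was matched. The seed of both miR-30c 3p strands, UGGGAGA, was found in no other listed miRNA with a sequence, nor was UUUCAGU of miR-30a-3p. No sequence was held for miR-30b-3p, miR-30d-3p and miR-30e-3p, so whether they carry either seed was not checked. miR-30c-2-3p and miR-30c-1-3p differed by A9G, C12U and U22C. No source used here says how the authors assigned reads that match more than 1 member. No row of the table lay within 0.18 of a family row on the log2 scale in every library, so none was a repeat of another name.

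The genes lie in pairs. miR-30a-5p (chr9:33233946-33233967, plus strand) and miR-30a-3p (chr9:33233987-33234008) come from Mir30a, and the Mir30c2 copy of miR-30c-5p (chr9:33253695-33253717) and miR-30c-2-3p (chr9:33253735-33253756) from a hairpin 19670 bases further on. miR-30e-5p (chr5:139637504-139637525, minus strand) lies 2906 bases from the Mir30c1 hairpin, which gives the second, identical copy of miR-30c-5p (chr5:139634505-139634527, minus strand) and miR-30c-1-3p (chr5:139634467-139634488). Both of these hairpins fall within the span of Nfyc, a gene for a subunit of the transcription factor NF-Y. Mir30b and Mir30d neighbour each other on chromosome 7. miR-384-5p comes from Mir384 (chrX:74490939-74490961, minus strand). The deposited values rest on the build rn6, per the submitters' processing notes, so these positions locate the sequences only.

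Values are RPM, the reads of a miRNA scaled by the authors' divisor for the library. The divisor came to 13032805 to 13850400 reads per library. The listed miRNAs took 60.3% to 78.0% of that divisor, and RPM moves with this share. 2-VO replicate 3 had the lowest share, and 7 of the 10 members had their lowest RPM there, whereas 0 of the 10 had their lowest share of the listed miRNAs there. Values relative to the listed miRNAs are therefore given beside RPM where the result turns on it. The tissue label was checked with miRNA markers. The 6 neuronal markers summed to 160025 to 206599 RPM in 2-VO libraries and 168802 to 205547 RPM in sham libraries. The liver marker miR-122-5p reached at most 3.12 RPM, and the heart miRNA miR-208a-3p and the Hox-cluster miRNA miR-196a-5p were listed at 0 throughout. These 2 belong to the muscle and hindbrain lists of 3 markers each, whose other markers were not at 0 throughout and whose sums are given below. Choroid plexus markers summed to 387 to 562 RPM in 2-VO and 548 to 949 RPM in sham libraries, and the 3 epithelial ones to 3.16 to 43.2 and 2.53 to 9.69 RPM, highest in 2-VO replicate 3. The sums of the oligodendrocyte (1615 to 2923 RPM over both groups), endothelial (5769 to 8326 RPM), red blood cell (84.1 to 215 RPM), muscle (15.3 to 24.5 RPM), hindbrain (4.80 to 33.9 RPM) and leukocyte markers (27.9 to 51.6 RPM) overlapped between the groups. Their part in the member values was not tested. In a tissue sample, fewer cells of a type and less of a miRNA per cell cannot be told apart.

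The family held 5.48% ± 0.270 of the listed RPM in 2-VO libraries and 5.41% ± 0.250 in sham libraries (SD, n = 5 each). Nearly all of it was the 5p strand. The 5 5p members took 5.16% ± 0.266 and 5.09% ± 0.260, and the 5 3p members 0.322% ± 0.0131 and 0.326% ± 0.0197 in 2-VO and sham libraries. The 3p share of all member reads was 5.89% ± 0.318 in 2-VO and 6.04% ± 0.546 in sham libraries.

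Levels of the members covered almost 3 orders of magnitude, and their order was nearly fixed. Mature lengths were 22 or 23 bases where RefSeq gave them, so RPM was compared between members without correction for length. Ligation can favour one sequence over another, and this was not tested. miR-30d-5p, which in mouse beta cells raises insulin expression, was the most abundant member on average and stood 11th among all listed miRNAs. Its level was 10493, 12795, 14652, 11174 and 12319.7 RPM in 2-VO replicates 3, 5, 6, 7 and 8, against 15304, 13203, 12304, 11363 and 13923 RPM in sham replicates 1 to 5. The groups overlapped, and sham replicate 1 was the highest of all.

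miR-30a-5p stood next, 13th of all miRNAs. It was at 10349.6, 12385, 14541, 12022 and 12601 RPM in the 2-VO libraries, against 10765, 11979, 12819.9, 10805 and 12759 RPM in the sham libraries. miR-30d-5p was above miR-30a-5p in 7 of 10 libraries, with a mean ratio of 1.05, so this pair of neighbours did not differ beyond their spread.

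miR-30c-5p, which in rat heart muscle cells represses connective tissue growth factor, was the next lower. Its level was 6839.9, 8414, 9849, 8312 and 8051 RPM in the 2-VO libraries, against 7738, 8915, 9165, 8193 and 10086 RPM in the sham libraries. It was below miR-30a-5p in 10 of 10 libraries, by 1.42-fold on average, although 2 hairpins encode it.

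miR-30e-5p, which represses the SUMO-conjugating enzyme Ubc9 in human tumour cells and differs from miR-30a-5p by 1 base, was 3.52-fold below miR-30c-5p. It was at 1884, 2768, 2799.8, 2549 and 2459 RPM in the 2-VO libraries, against 2014, 2573, 2529, 1985 and 2872 RPM in the sham libraries, with full overlap. miR-30b-5p was far lower, at 238, 386, 302, 286 and 346 RPM in the 2-VO libraries, against 331, 262, 351, 268 and 365 RPM in the sham libraries. Its genomic neighbour miR-30d-5p thus exceeded it by 5.31 ± 0.223 in 2-VO and 5.40 ± 0.209 in sham libraries on the log2 scale (SD, n = 5).

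The 3p members fell into a high and a low set. miR-30e-3p stood at 1154, 1333, 1639.6, 1279.8 and 1479.9 RPM in the 2-VO libraries, against 1424, 1447, 1515, 1423 and 1369.8 RPM in the sham libraries. It was 2.03-fold above miR-30a-3p, which averaged 674 ± 92.0 RPM in 2-VO and 717 ± 65.4 RPM in sham libraries (SD, n = 5), and both stood above the 5p strand of miR-30b in all 10 libraries. miR-30c-2-3p averaged 144 ± 12.1 and 145 ± 5.25 RPM. In RPM it varied least of all members over the 10 libraries, with a highest value only 1.25 times its lowest. As a share of the listed RPM, miR-30e-3p varied least (SD of the log2 value 0.067, against 0.084 for miR-30c-2-3p). miR-30b-3p (19.9 ± 2.53 RPM in 2-VO, 22.3 ± 2.20 RPM in sham) and miR-30d-3p (19.5 ± 2.33 and 19.0 ± 2.27 RPM) were the lowest members, at 217 to 354 reads per library. This pair did not separate, with miR-30b-3p higher in 8 of 10 libraries. The order of levels is shown in the plot of RPM by member.

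**Figure D1:**
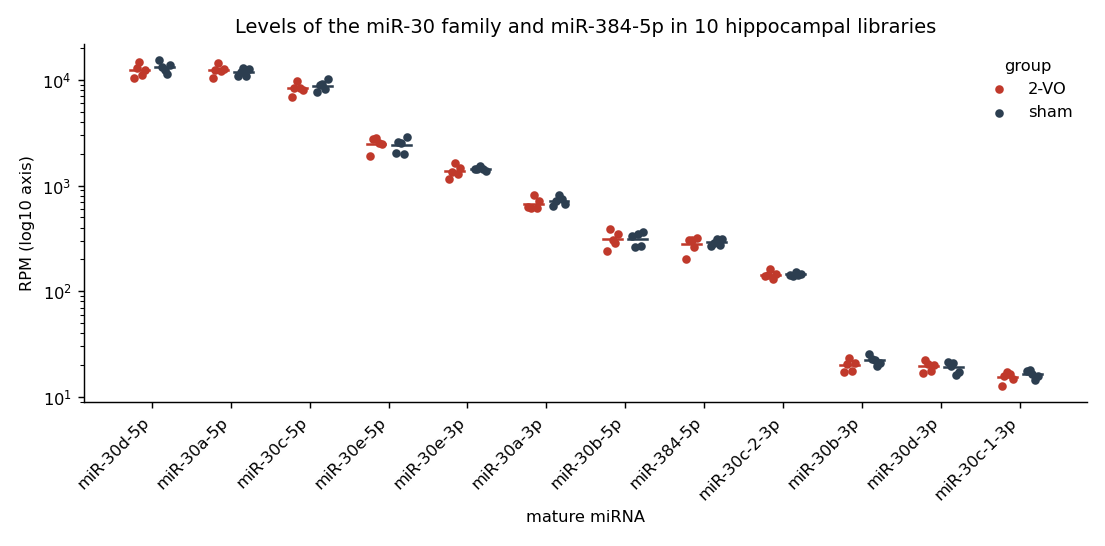
RPM of the 10 members, miR-30c-1-3p and miR-384-5p on a log10 axis, ordered by mean level. Each point is a library, with 5 2-VO libraries left of 5 sham libraries, and the bar is the group mean. The means fall from 12753 RPM for miR-30d-5p to 21.1 RPM for miR-30b-3p and 19.2 RPM for miR-30d-3p among the members, and the groups overlap for every miRNA shown.

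Within the 5p seed group, miR-30d-5p, miR-30a-5p and miR-30c-5p made up most of the reads. Of the summed 5p members, miR-30a-5p took 34.6% ± 0.586 in 2-VO and 32.3% ± 1.73 in sham libraries (SD, n = 5). miR-30d-5p took 34.4% ± 1.05 and 36.2% ± 3.58, with 42.3% in sham replicate 1 and 32.5% to 35.8% in the other 9 libraries. miR-30c-5p took 23.2% ± 0.647 and 24.1% ± 1.57, miR-30e-5p 6.96% ± 0.514 and 6.52% ± 0.672, and miR-30b-5p 0.873% ± 0.134 and 0.860% ± 0.0963. The ranges of the groups overlapped for each of these shares. miR-384-5p, a brain miRNA that acts on dendritic spines in the potentiation of rat hippocampal synapses, carries the same seed. At 278 ± 49.1 RPM in 2-VO and 291 ± 21.1 RPM in sham libraries it added 0.770% ± 0.0885 and 0.790% ± 0.0426 to the reads with this seed. Its level did not differ from that of miR-30b-5p beyond their spread, with miR-30b-5p higher in 7 of 10 libraries. Among the 3p members, miR-30e-3p took 61.6% ± 1.38 and 61.4% ± 1.22 and miR-30a-3p 30.2% ± 1.21 and 30.6% ± 1.51 in 2-VO and sham libraries.

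**Figure D2:**
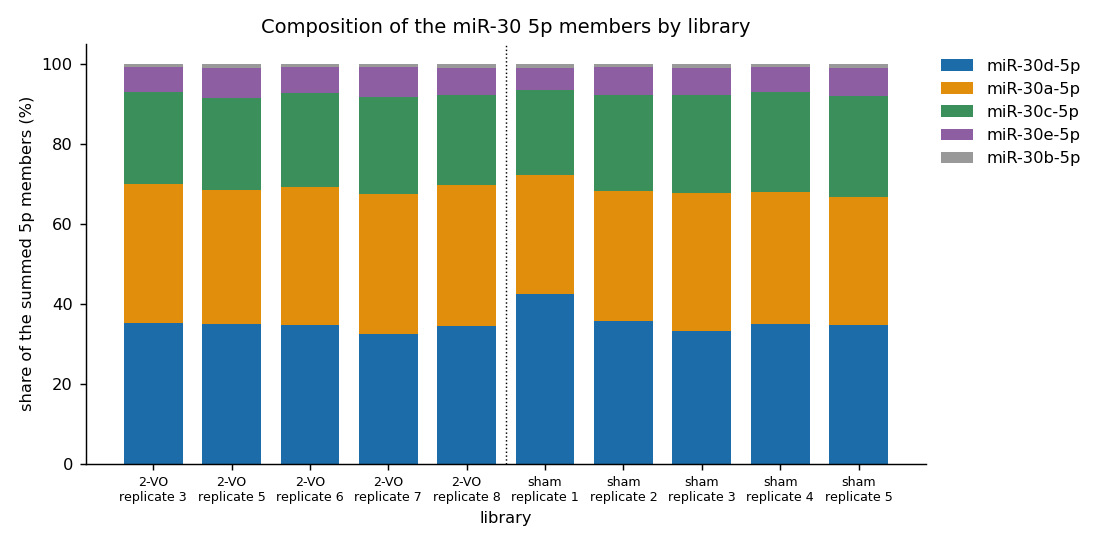
Share of each 5p member in the summed RPM of the 5p members (percent), as stacked bars for 10 libraries, with 2-VO left of the dotted line and sham right of it. miR-30d-5p, miR-30a-5p and miR-30c-5p fill over 90% of each bar, and sham replicate 1 stands out with 42.3% miR-30d-5p.

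Use of the 2 strands differed widely between hairpins whose 5p seed is the same. In the miR-30d hairpin the 3p strand made up 0.159% ± 0.0127 of both strands in 2-VO and 0.144% ± 0.0165 in sham libraries (SD, n = 5). In the miR-30e hairpin it made up 35.7% ± 2.53 and 37.8% ± 3.95. The other hairpins lay between, with 5.17% ± 0.397 and 5.73% ± 0.543 for miR-30a, and 6.09% ± 0.865 and 6.69% ± 0.996 for miR-30b. For miR-30c the summed 3p strands made up 1.90% ± 0.168 and 1.81% ± 0.173.

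Set beside 133 hairpins with both strands kept, each miR-30 hairpin favoured the 5p strand, as did 54.1% of the 133. The 133 are those whose 5p and 3p strands carry the same name, plus miR-30c with its 3p strands summed. Other miRNAs whose strand names differ by a hairpin number are not among them. The mean log2 ratio of 5p to 3p was 9.30 for miR-30d, the 5th highest of the 133, and 5.72 for miR-30c (19th). It was 4.12 for miR-30a (33rd), 3.82 for miR-30b (36th) and 0.79 for miR-30e (65th), where the median of all hairpins was 0.66. The 629-fold excess of miR-30d-5p over its 3p strand and the 1.73-fold excess of miR-30e-5p over its own stand at the ends of the family. These ratios and folds have 1 RPM added to each strand, which lowers the fold of a hairpin with a low 3p strand.

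The 3p strands also tell both miR-30c hairpins apart, which their identical 5p strand cannot. miR-30c-2-3p made up 90.4% ± 1.01 of the summed miR-30c 3p strands in 2-VO and 89.8% ± 0.958 in sham libraries. miR-30c-1-3p stood at 12.7, 15.7, 17.2, 16.4 and 14.7 RPM in the 2-VO libraries, against 17.5, 17.9, 16.5, 14.4 and 15.9 RPM in the sham libraries. Its neighbour within Nfyc, miR-30e-3p, exceeded it by 6.49 ± 0.141 and 6.45 ± 0.125 on the log2 scale. In the other pair miR-30a-3p exceeded miR-30c-2-3p by 2.22 ± 0.0859 and 2.30 ± 0.110.

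**Figure D3:**
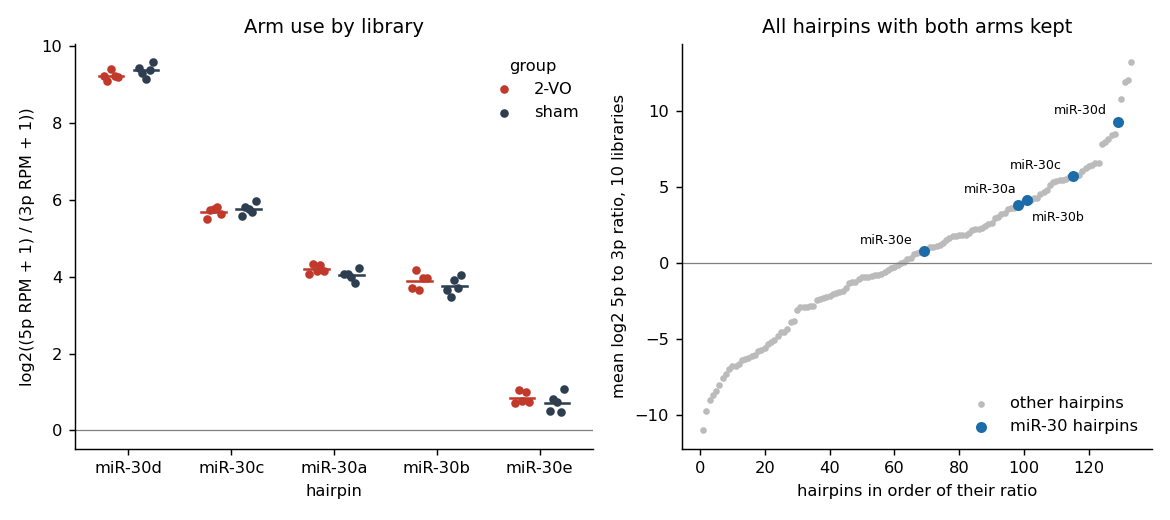
Left, log2 ratio of 5p to 3p RPM (1 added to each) for the 5 miR-30 hairpins, 1 point per library with the group mean as a bar and 2-VO left of sham; miR-30c-5p is set against the sum of both its 3p strands. Right, the mean ratio over 10 libraries of all 133 hairpins in ascending order, with the miR-30 hairpins in blue running from 0.79 (miR-30e) to 9.30 (miR-30d).

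The comparison of 2-VO with sham asks whether carotid occlusion moved any member. No member passed the threshold, and the fold change farthest from 0 was that of miR-30b-3p. It was at 17.4, 20.4, 23.3, 17.4 and 21.1 RPM in the 2-VO libraries, against 25.6, 22.8, 22.4, 19.7 and 21.0 RPM in the sham libraries, with a log2 fold change of -0.16 ± 0.12 (SE, adjusted p = 0.82 in limma over 474 miRNAs). Of the 10 members 0 had an adjusted p under 0.05 (limma), as for 0% of all 474 miRNAs. An unadjusted p under 0.05 was found for 0 of the 10 members by limma, by voom and by an exact permutation test per miRNA. Of all miRNAs 5.06% had one by limma, 25 of 474 by voom and 32 of 474 by the exact permutation test. The groups overlapped for every member, whereas they did not for 0.633% of all miRNAs.

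The members' log2 fold changes ran from -0.16 for miR-30b-3p to 0.06 for miR-30a-5p, with a median of -0.046. The fold change was below 0 for 7 of the 10 members, as for 62.2% of all miRNAs, whose median was -0.051. Of the 5p members, miR-30d-5p (-0.11), miR-30c-5p (-0.092) and miR-30b-5p (-0.022) had values below 0, and miR-30a-5p (0.062) and miR-30e-5p (0.059) above 0. Of the 3p members 4 of 5 had values below 0, the exception being miR-30d-3p (0.031). The 95% intervals of all members lay between -0.41 and 0.34, that is between 0.751-fold and 1.27-fold, so larger shifts in RPM lie outside them, without allowance for the number of miRNAs tested. Without 2-VO replicate 3 the median of the members was -0.0042 with 5 of 10 below 0, against a median of -0.0020 of all miRNAs.

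RPM scaled to the listed miRNAs moved the median of all miRNAs to 0.00061, and 5 of the 10 members were then below 0. On this scale miR-30a-5p held 1.79% ± 0.0830 of the listed RPM in 2-VO and 1.64% ± 0.0563 in sham libraries (SD, n = 5), with ranges of 1.69% to 1.87% and 1.58% to 1.73%. Its log2 fold change was 0.12 ± 0.048 (SE, 95% interval 0.015 to 0.22, adjusted p = 0.62 in limma). It was 1 of 10 members with an unadjusted p under 0.05 in limma on this scale, where 7.38% of all miRNAs had one, so the members' count is near the background. With TMM factors (trimmed mean of M values), another scaling, 0 of the 10 members had one in limma, against 36 of all 474 miRNAs.

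**Figure D4:**
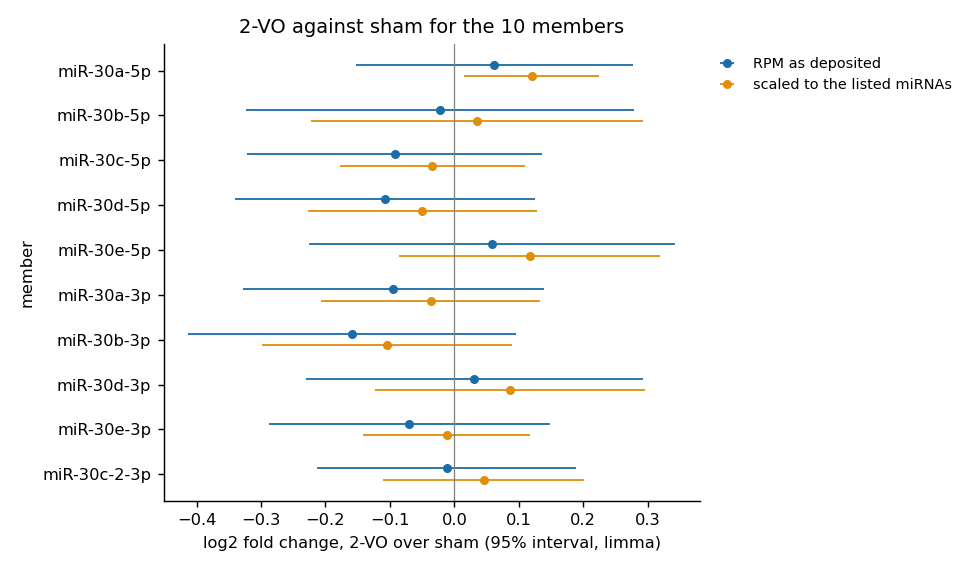
Log2 fold change of 2-VO over sham (x axis) for the 10 members (rows) with 95% intervals from limma over 474 miRNAs, in blue for RPM as deposited and in orange for RPM scaled to the listed miRNAs. Every blue interval holds 0, and of the orange ones only that of miR-30a-5p (0.015 to 0.22) leaves it out.

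Ratios between members within a library do not depend on the divisor. miR-30c-5p relative to miR-30a-5p was lower in every 2-VO library than in any sham library. The log2 ratio was -0.60, -0.56, -0.56, -0.53 and -0.65 in 2-VO replicates 3, 5, 6, 7 and 8, against -0.48, -0.43, -0.48, -0.40 and -0.34 in sham replicates 1 to 5. The groups did not overlap, with 0.669 reads of miR-30c-5p per read of miR-30a-5p in 2-VO and 0.745 in sham libraries. The difference was -0.15 ± 0.084 (SE, 95% interval -0.34 to 0.027).

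This pair was picked after its values were seen. It was 1 of the 10 pairs of 5p members, and 1 of the 28 pairs of the 8 members of at least 100 RPM, whose groups did not overlap, against 1.59% of the 17391 pairs of all such miRNAs. Its exact two-sided permutation p was 0.0079, the smallest that 5 against 5 libraries allow. Every pair whose groups do not overlap has this p, so it adds nothing to the lack of overlap. In limma over all 17391 pairs the pair of miR-30c-5p and miR-30a-5p did not pass (adjusted p = 0.64), and 0 of all pairs did. Of the 186 pairs that miR-30a-5p formed with other miRNAs of at least 100 RPM, 7.53% had groups without overlap, against 1.61% for miR-30c-5p. Relative to miR-30a-5p, miR-30d-5p was at -0.012 ± 0.0596 in 2-VO and 0.16 ± 0.211 in sham libraries, and miR-30e-5p at -2.32 ± 0.118 and -2.32 ± 0.127 (log2, SD, n = 5), each with overlap.

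**Figure D5:**
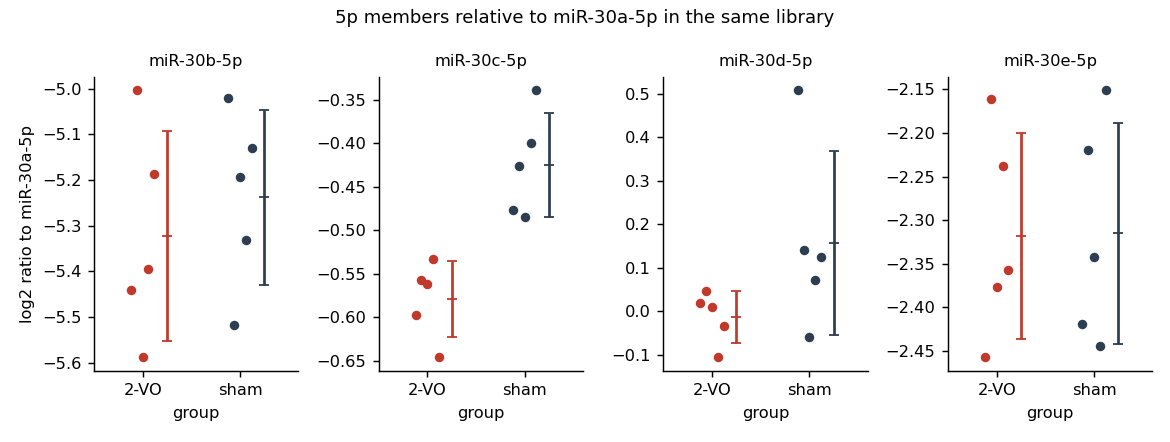
Log2 ratio of each other 5p member to miR-30a-5p in the same library, 1 point per library, with the mean ± SD beside it and 2-VO left of sham; each panel has its own axis. Only for miR-30c-5p do the groups not overlap (-0.65 to -0.53 in 2-VO, -0.48 to -0.34 in sham).

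Strand use was compared between the groups with limma over the 133 hairpins. Of the 5 miR-30 hairpins 0 passed (limma adjusted p of at least 0.56), as for 0% of all, and 0 had an unadjusted p under 0.05 by limma or by an exact permutation test, against 11.3% of all hairpins by limma. The groups overlapped for each of the 5, whereas they did not for 1.50% of hairpins. The difference in log2 ratio was positive for miR-30a (0.16), miR-30b (0.14) and miR-30e (0.13) and below 0 for miR-30c (-0.071) and miR-30d (-0.14), that is for 2 of 5 against 43.6% of all hairpins. For miR-30a the log2 ratio was 4.06, 4.33, 4.14, 4.30 and 4.16 in the 2-VO libraries, against 4.07, 4.07, 3.99, 3.84 and 4.24 in the sham libraries. The highest 2 values were those of 2-VO replicates 5 and 7, and the lowest that of sham replicate 4.

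Most members varied less between libraries than the median miRNA of at least 10 RPM, a set not matched to them in level. Whether read depth accounts for this was not tested. As a share of the listed RPM, the SD of the log2 value over the 10 libraries had a median of 0.119 over the members, against 0.165 over the 339 miRNAs of at least 10 RPM, and 9 of 10 members lay below that value. The pair of members in closest proportion was miR-30d-5p and miR-30b-3p, strands of neighbouring hairpins (SD of the log2 ratio 0.082). That SD was no larger than the counting error of 0.086 for miR-30b-3p alone. Next came miR-30a-3p and miR-30e-3p (0.090). Without a sequence of miR-30e-3p, reads that match both of these strands could not be examined. Outside the family, the miRNAs of at least 100 RPM in closest proportion to a 5p member over the 10 libraries were miR-185-5p to miR-30c-5p (SD of the log2 ratio 0.038), miR-103-3p to miR-30a-5p (0.067), miR-3068-5p to miR-30e-5p (0.099), miR-361-3p to miR-30d-5p (0.10) and miR-138-5p to miR-30b-5p (0.14). The median over the 185 candidates was 0.18 to 0.24. The number of these candidates closer to a 5p member than its closest family member was 11 for miR-30a-5p, 16 for miR-30b-5p, 6 for miR-30c-5p, 0 for miR-30d-5p and 5 for miR-30e-5p. Family members entered at any level, and the one closest to miR-30d-5p, miR-30b-3p, averaged 21.1 RPM, under the 100 RPM asked of the candidates.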

How the data were processed

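Small RNA libraries of hippocampal RNA (Trizol, adapter ligation, PCR and gel selection, per the labels' protocols) were processed with tools that include bcl2fastq and BWA, per the submitters' processing notes. The deposited table gives RPM made by the authors. All 4962 values above 0 were whole reads within 0.01 at 1 divisor per library, and none was under 10 reads, so a 0 stands for under 10 reads (0.722 to 0.767 RPM). Reads carry no molecular identifiers in the protocols, so PCR copies may be counted.

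In R 4.3.3, limma 3.58.1 (two-sided moderated test, mean-variance trend, no covariate, Benjamini-Hochberg threshold 0.05) compared log2(RPM + 1) of 474 miRNAs, those averaging 1 RPM or more, which include all 10 members. The log2 5p to 3p ratios of 133 hairpins, those with both strands kept under the same name and miR-30c, were compared likewise. The script was tested on simulated data. Ratios of pairs were fitted without a pseudocount or trend, over 187 miRNAs of at least 100 RPM after leaving out 6 near-identical rows (within 0.05 on the log2 scale). Exact tests used all 252 assignments. The fold scale understates changes of low miRNAs. Members, lists and tests were chosen with earlier results of these data known. The rule named the members, miR-30c-1-3p, listed miRNAs with a member's seed and the closest miRNA to each 5p member. The planned count test on reads was not run, because reads under 10 are not listed, and voom took its place.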

Additional observations from a re-analysis of the deposited data

Results flagged for a closer look

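Of 98 groups of 5 values, 5 held a library far from the others, with a gap to the nearest above 0.71 of the range, where chance alone gives about 4.9. Sham replicate 1 gave the highest share of miR-30d-5p in the 5p members (42.3%, others 33.1% to 35.8%), the lowest share of miR-30c-5p (21.4%, others 24.1% to 25.2%) and the highest log2 ratio of miR-30d-5p to miR-30c-5p (0.98, others 0.42 to 0.57). 2-VO replicate 7 gave the lowest share of miR-30d-5p (32.5%, others 34.4% to 35.2%) and the lowest log2 ratio of miR-30d-5p to miR-30c-5p (0.43, others 0.57 to 0.62). Both ratios hold the same miR-30d-5p values as the shares, so these are not separate signals, and no cause was tested.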

How the results depend on the processing

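No member and no miR-30 hairpin passed under any setting tried (19 settings for members, smallest limma adjusted p = 0.57; up to 17 for hairpins, smallest 0.38). The fold changes of 5 members kept their direction throughout, but leaving out 1 library in turn moved their size, to -0.17 to -0.053 for miR-30d-5p, -0.16 to -0.025 for miR-30c-5p, -0.17 to -0.051 for miR-30a-3p, -0.21 to -0.11 for miR-30b-3p and -0.14 to -0.0089 for miR-30e-3p. The hairpin differences likewise ran over 0.11 to 0.21 for miR-30a, 0.064 to 0.21 for miR-30b, -0.12 to -0.022 for miR-30c, -0.20 to -0.087 for miR-30d and 0.068 to 0.21 for miR-30e. Scaled to the listed miRNAs and with TMM factors, miR-30b-5p turned to 0.035 and 0.037 and miR-30c-2-3p to 0.046 and 0.047. The same omissions gave -0.10 to 0.069 for miR-30b-5p, -0.058 to 0.021 for miR-30c-2-3p, -0.025 to 0.082 for miR-30d-3p, -0.0051 to 0.16 for miR-30e-5p, -0.14 to 0.032 for miR-384-5p and 0.0017 to 0.12 for miR-30a-5p. The c to a log2 ratio difference stayed between -0.17 and -0.13, and its adjusted p at 0.47 or above. Hairpins past the threshold numbered 0 to 3 without 1 library (1 without 2-VO replicate 3, 3 without sham replicate 5), none of them of miR-30.

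Title numbers 3 and 5 occur in both groups, but nothing says that they pair libraries (correlation of deviations -0.058 and -0.18). With the replicate block, which leaves 1 residual degree of freedom, 8 miRNAs passed, none a member. The group effect of this fit rests only on the libraries numbered 3 and 5, since every other number occurs in a single group. In this fit miR-30a-5p was at -0.18 and miR-30e-5p at -0.24, and the hairpin ratios of miR-30b and miR-30e at -0.040 and -0.022. The summed 5p members were 0.978 of sham in RPM and 1.01 as a share of the listed RPM, and the 3p members 0.955 and 0.988. The edgeR test of the plan was not run. Depth limits the lowest members. On the log2 scale the Poisson counting error was 0.086 for miR-30b-3p and 0.090 for miR-30d-3p, against SDs of their share of the listed RPM of 0.051 and 0.12 in 2-VO and 0.16 and 0.16 in sham libraries. Voom and the pair ratios were added after the data were seen.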
